A study of Mus musculus with 4 samples.

Results

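Prostanoids are made from arachidonic acid, and the 10 genes described here encode the enzymes that build them and the enzyme that starts their breakdown. The genes were chosen by name: *Ptgs1*, *Ptgs2*, *Ptges*, *Ptges2*, *Ptges3*, *Ptgds*, *Hpgds*, *Ptgis*, *Tbxas1* and *Hpgd*. On the arrays they have 17 probes, of 39429 probes in all, and they are 10 of the 22371 genes that could be named. Of the 17 probes, 16 gave a signal well above background on all 4 arrays, and 1 (the second probe of *Tbxas1*) on none.

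The study compared the colon of *Pla2g3*+/+ mice with that of *Pla2g3*-/- mice, which lack group III secreted phospholipase A2, with saline as vehicle or after the colon carcinogen azoxymethane (AOM). The carcinogen was given at 10 mg/kg into the peritoneum weekly for 6 weeks, and tissue was taken 28 weeks after the last dose. All mice were male, 42 weeks old and of the B6.129 (n3) background, so that both genotypes and both treatments share sex, age and strain, and the AOM groups are described as tissue with colorectal cancer. Each of the 4 groups is 1 array of RNA pooled from 3 to 5 mice, so there is no replicate check, no ratio below has a p-value, and differences between mice of a pool are not visible.

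Cyclooxygenases, encoded by *Ptgs1* (COX-1) and *Ptgs2* (COX-2), turn arachidonic acid into the unstable prostaglandin H2, which terminal synthases convert into prostaglandin E2, D2, I2 (prostacyclin) or thromboxane A2. COX-1 is made in most tissues, whereas COX-2 is induced by cytokines, growth factors and tumor promoters, and is often abundant in colorectal tumors. The dehydrogenase encoded by *Hpgd* inactivates prostaglandins, is made by differentiated colon epithelium, and is often lost in colorectal tumors.

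Promoter windows from RefSeq (assembly GRCm38.p6) were matched by symbol for 9 of the 10 genes, and *Ptgis* has no entry. Each window runs from 250 bases before the annotated start of the gene to 50 bases after it. The windows of the 3 genes that were more than 2-fold higher after AOM in *Pla2g3*+/+ colon, *Ptgs2*, *Ptgds* and *Tbxas1*, and that of *Hpgd*, which was lower, are shown up to 30 bases after the start, 5′ to 3′ on the strand of the gene. Capitals mark matches on either strand to 6 motifs, which are the TATA box (TATAAA), the core of the cAMP response element (TGACG), the E-box (CACGTG), the AP-1 site (TGACTCA), the GC box (GGGCGG) and the CCAAT box, named by its letters.
Ptgs2, chr1:150099781-150100060, plus strand: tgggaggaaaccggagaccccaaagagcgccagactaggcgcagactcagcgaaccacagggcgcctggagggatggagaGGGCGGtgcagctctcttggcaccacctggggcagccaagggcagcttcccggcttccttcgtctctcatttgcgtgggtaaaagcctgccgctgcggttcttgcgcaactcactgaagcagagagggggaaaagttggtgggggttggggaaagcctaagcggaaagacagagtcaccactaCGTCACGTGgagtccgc
Ptgds, chr2:25469720-25469999, minus strand: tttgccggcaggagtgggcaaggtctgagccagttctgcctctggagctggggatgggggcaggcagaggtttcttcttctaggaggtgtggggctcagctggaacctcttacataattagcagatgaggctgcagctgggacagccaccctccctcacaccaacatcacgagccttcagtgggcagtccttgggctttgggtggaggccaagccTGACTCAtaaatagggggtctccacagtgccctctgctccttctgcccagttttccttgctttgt
Tbxas1, chr6:38918736-38919015, plus strand: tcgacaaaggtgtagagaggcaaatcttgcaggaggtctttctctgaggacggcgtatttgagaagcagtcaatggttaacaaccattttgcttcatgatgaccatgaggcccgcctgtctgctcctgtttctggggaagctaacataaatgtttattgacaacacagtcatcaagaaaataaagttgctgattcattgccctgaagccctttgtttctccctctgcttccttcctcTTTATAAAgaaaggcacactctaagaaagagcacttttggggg
Hpgd, chr8:56294302-56294581, plus strand: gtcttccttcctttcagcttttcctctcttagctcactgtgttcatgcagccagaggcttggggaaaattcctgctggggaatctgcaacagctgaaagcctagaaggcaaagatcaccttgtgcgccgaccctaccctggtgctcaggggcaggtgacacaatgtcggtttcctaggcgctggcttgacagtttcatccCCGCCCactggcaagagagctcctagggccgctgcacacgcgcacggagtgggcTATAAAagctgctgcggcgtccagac
The *Ptgs2* window holds a GC box and, after the start, the reverse complement of TGACG and an E-box that share 2 bases. TGACG is in 20.9% of all 32544 windows of the same 300 bases, CACGTG in 7.17% and GGGCGG in 35.9%. The *Ptgds* window holds TGACTCA, as do 5.19% of windows, and the *Tbxas1* window holds TATAAA on both strands in overlapping positions. The *Hpgd* window holds TATAAA, which 13.6% of windows have, and a GC box on the opposite strand. No match to CCAAT, found in 37.4% of windows, was seen in any of the 9 members' windows, and none of the 6 motifs is shared by *Ptgs2*, *Ptgds* and *Tbxas1*. A match is a description of letters, not a binding site.

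Signals are given relative to the array: the background-corrected intensity of a probe over the 75th percentile of all non-control spots, so that 1 equals that percentile. The percentile was 646 and 650 in arbitrary intensity units on the vehicle arrays of *Pla2g3*+/+ and *Pla2g3*-/- mice, and 1309 and 1169 after AOM. Without this scaling, every log2 ratio of AOM over vehicle would be larger by 1.02 in *Pla2g3*+/+ and by 0.85 in *Pla2g3*-/- mice. Between 64.8% and 69.4% of spots were well above background by the scanner software, no spot was saturated, and replicate spots of a probe had a median SD of 0.057 to 0.066 on the log2 scale, which covers the array surface only. A gene is counted as higher or lower when its brightest probe is past 2-fold. The brightness of different probes is not comparable, so a level is compared only between arrays for the same probe. A signal summed over a list is likewise set only against the same sum on another array, and its brightest probes dominate it. "Brightest" names the probe with the highest signal in a list, not the most abundant RNA.

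The targeted gene, *Pla2g3*, did not follow the genotype labels. With vehicle its brightest probe read 0.531 for *Pla2g3*+/+ and 0.656 for *Pla2g3*-/- by label. After AOM the readings were 0.232 and 1.40. The signal was thus 6.01-fold higher, not lower, in the pool labeled *Pla2g3*-/- after AOM, and all 3 probes were higher there. A probe outside the deleted part of the gene would check nothing, and where these probes lie relative to the deletion is not given in the sources used here. Directions between genotypes below therefore rest on the labels, and the pools are called the pools labeled *Pla2g3*-/-.

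Genes of epithelium in general (*Epcam*, *Cdh1*, *Vil1*, *Krt8*, *Krt18*), which do not tell colon from other epithelia, were well above background on all 4 arrays. Their summed signal was 346, 342, 264 and 340. In this and later sentences, 4 values stand in the order *Pla2g3*+/+ vehicle, labeled *Pla2g3*-/- vehicle, *Pla2g3*+/+ AOM and labeled *Pla2g3*-/- AOM. The vehicle array labeled *Pla2g3*-/- also carried genes of pancreatic acinar cells. There 6 of 7 were more than 2-fold above the *Pla2g3*+/+ vehicle array, against 1.93% of all genes. The summed signal of the 7 was 16.8, 54.0, 1.65 and 5.59. *Cela1*, which was within 2-fold between the vehicle pools, gave 16.5, 13.2, 1.57 and 5.51 of these sums. On each AOM array 5 of the 7 were not well above background.

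The 10 prostanoid enzymes, like genes in general on these arrays, differed less between the vehicle pools than between the AOM pools. In the vehicle pools 1 of 10 genes (*Hpgds*, lower) was past 2-fold between genotypes, against 3.25% of all genes (1.93% higher and 1.32% lower). After AOM 5 of 10 were past 2-fold between genotypes, 2 higher (*Ptgis*, *Hpgd*) and 3 lower (*Ptgs2*, *Ptgds*, *Tbxas1*) in the pool labeled *Pla2g3*-/-, against 28.0% of all genes (15.1% higher and 12.9% lower). The same 5 genes were past 2-fold between AOM and vehicle in *Pla2g3*+/+ colon, each in the opposite direction, against 37.5% of all genes (15.1% higher and 22.4% lower). These comparisons share the *Pla2g3*+/+ AOM array. Without scaling, 5 genes were higher and 1 lower there. In the pools labeled *Pla2g3*-/-, AOM over vehicle was past 2-fold for *Hpgds* (higher) and *Ptgds* (lower), against 24.8% of all genes (9.65% higher and 15.1% lower), and without scaling for 4 genes, all higher.

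**Figure D1:**
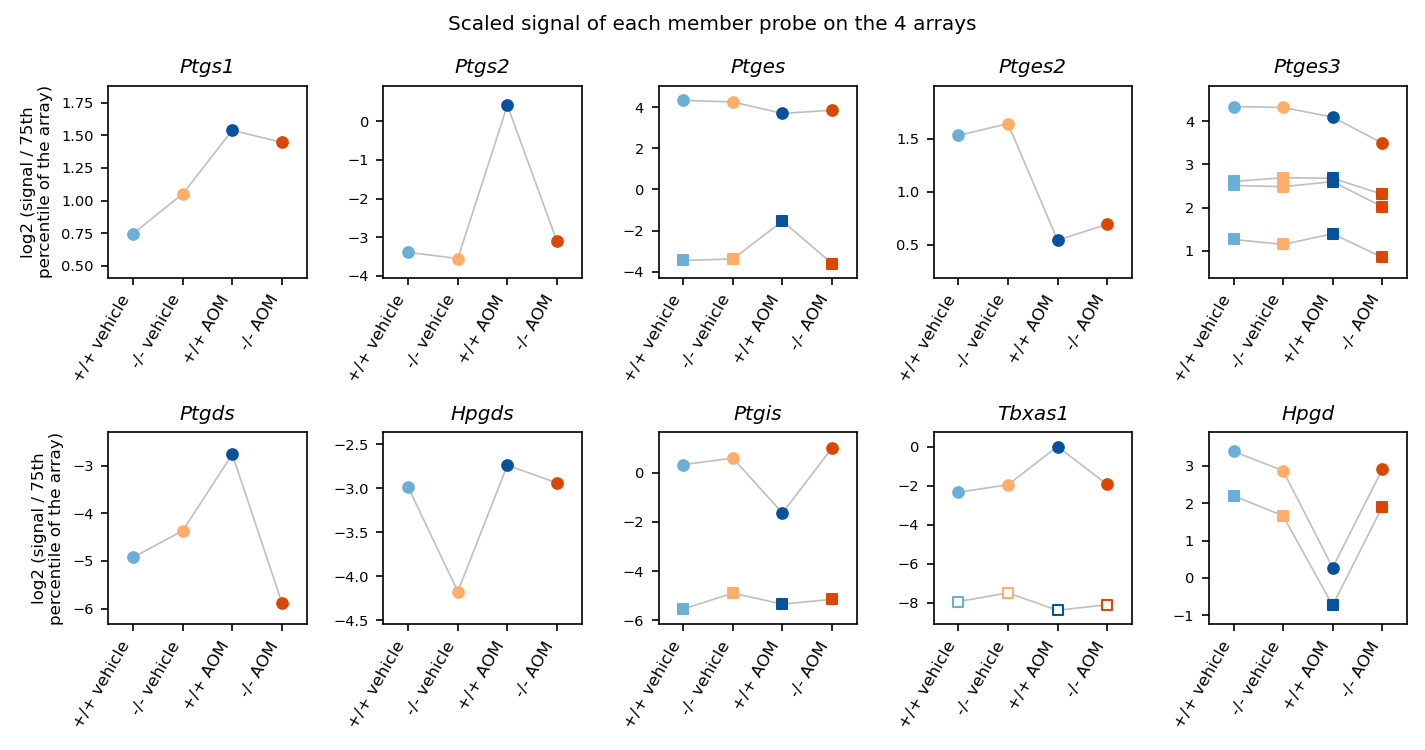
Signal of every member probe on the 4 arrays, as log2 of the intensity over the 75th percentile of the array, with 1 panel per gene. Circles are the brightest probe, squares the others, open symbols are not well above background, lines join the arrays for 1 probe, and the vertical range differs between panels. *Ptgs2* and *Tbxas1* stand high on the *Pla2g3*+/+ AOM array alone, and *Hpgd* and the brighter *Ptgis* probe stand low on it.

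Of the 10 genes, as scaled here, COX-2 had the largest ratio between AOM and vehicle in *Pla2g3*+/+ colon and the largest between genotypes after AOM. Its single probe, at chr1:151954744-151954803 of mm9, read 0.0954, 0.0853, 1.33 and 0.116. The *Pla2g3*+/+ AOM array stood above the other 3, which lay close to each other. *Ptgs2* was 13.9-fold higher after AOM than with vehicle in *Pla2g3*+/+ colon (log2 ratio 3.80), where 190 of 17277 genes had a higher ratio. In the pools labeled *Pla2g3*-/- the same ratio was 1.36-fold, and between genotypes after AOM the signal was 11.4-fold lower in the pool labeled *Pla2g3*-/-. Over the processing settings the log2 ratio of AOM over vehicle in *Pla2g3*+/+ ran from 2.64 to 4.82. Between genotypes after AOM it ran from -3.68 to -2.53.

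The *Ptgs2* probe is printed at 10 positions on each array, which gives its technical spread. The intensities of the spots used, before scaling, ran from 58.4 to 65.0 for *Pla2g3*+/+ with vehicle, from 49.8 to 61.3 for the labeled *Pla2g3*-/- vehicle pool, from 1660 to 1812 for *Pla2g3*+/+ after AOM and from 119 to 160.5 for the labeled *Pla2g3*-/- pool after AOM. The SD on the log2 scale was 0.053, 0.10, 0.034 and 0.14 (n = 8, 9, 9 and 10 spots). The spots of the *Pla2g3*+/+ AOM array did not overlap those of any other array. This spread is that of spots, not of mice.

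**Figure D2:**
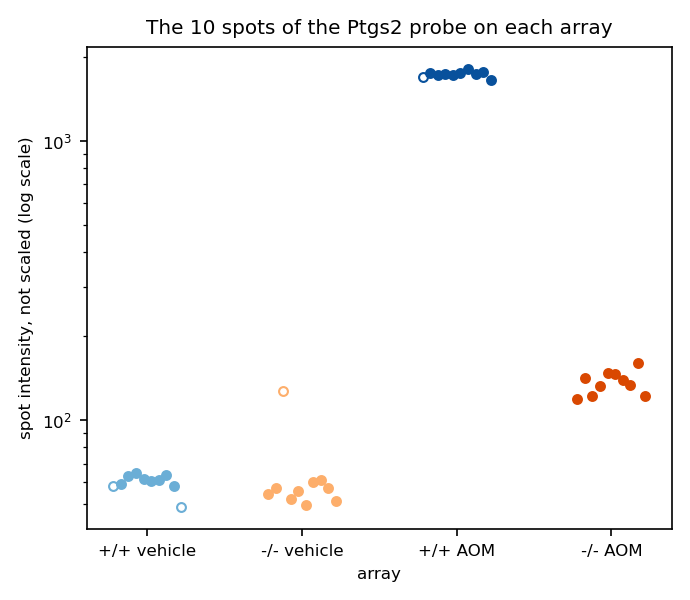
Intensity of the 10 spots of the *Ptgs2* probe on each array, before scaling and on a log axis. Filled points were used and open points were marked as outliers by the scanner software. The spots used lie between 1660 and 1812 on the *Pla2g3*+/+ AOM array and at or below 160.5 on the other 3.

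COX-1 varied far less. *Ptgs1* read 1.68, 2.07, 2.91 and 2.73, so that both AOM arrays stood above both vehicle arrays. The ratio of AOM over vehicle was 1.73-fold in *Pla2g3*+/+ and 1.31-fold in the labeled *Pla2g3*-/- pools, neither past 2-fold, and the genotypes were within 1.07-fold after AOM. Without scaling, both AOM ratios of *Ptgs1* passed 2-fold. On the 2 AOM arrays the ratio of *Ptgs2* to *Ptgs1* therefore differed by 10.7-fold between genotypes, which dividing a whole array by 1 factor cannot change.

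The 3 prostaglandin E2 synthases gave no single answer. *Ptges* encodes the inducible membrane enzyme that works with COX-2, and its 2 probes disagreed. Both carry the same RefSeq accession and lie on the minus strand of chromosome 2 in mm9, 3219 bases apart, and the first 30 of the 60 bases of each are shown because the result turns on which is read.
Ptges brighter probe, chr2:30745025-30745054: atgataaaggactaaacctctgaacctgta
Ptges dimmer probe, chr2:30748244-30748273: aaccctctgatcgcctggatacatttcctc
The brighter probe read 20.1, 19.0, 12.9 and 14.4, with no comparison past 2-fold, and the dimmer read 0.0918, 0.0963, 0.345 and 0.0827. By the dimmer probe *Ptges* was 3.76-fold higher after AOM in *Pla2g3*+/+ colon and 4.17-fold lower in the labeled *Pla2g3*-/- AOM pool than in *Pla2g3*+/+. Over the processing settings these log2 ratios ran from 1.02 to 2.93 and from -2.22 to -1.03. That probe, like *Ptgs2*, was high on the *Pla2g3*+/+ AOM array alone. The files do not say which exon or untranslated region either probe reads, and neither probe shares 20 bases with a probe of another gene.

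The other prostaglandin E2 synthases stayed within 2-fold in every comparison. *Ptges2*, a membrane-associated synthase, read 2.89, 3.12, 1.45 and 1.61, and both AOM arrays stood below both vehicle arrays, by 1.99-fold and 1.93-fold. Without scaling these AOM ratios were close to 1, at log2 values of 0.030 and -0.10. *Ptges3*, the cytosolic synthase also known as the co-chaperone p23, has 4 probes within 1027 bases of start-to-start distance on chromosome 10. All 4 gave their lowest signal on the labeled *Pla2g3*-/- AOM array, with log2 ratios to the *Pla2g3*+/+ AOM array of -0.60, -0.37, -0.58 and -0.54. The brightest of them read 20.2, 19.9, 17.1 and 11.2. The others read 6.08, 6.45, 6.41 and 4.95, then 5.71, 5.59, 6.07 and 4.06, and 2.40, 2.22, 2.63 and 1.80.

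**Figure D3:**
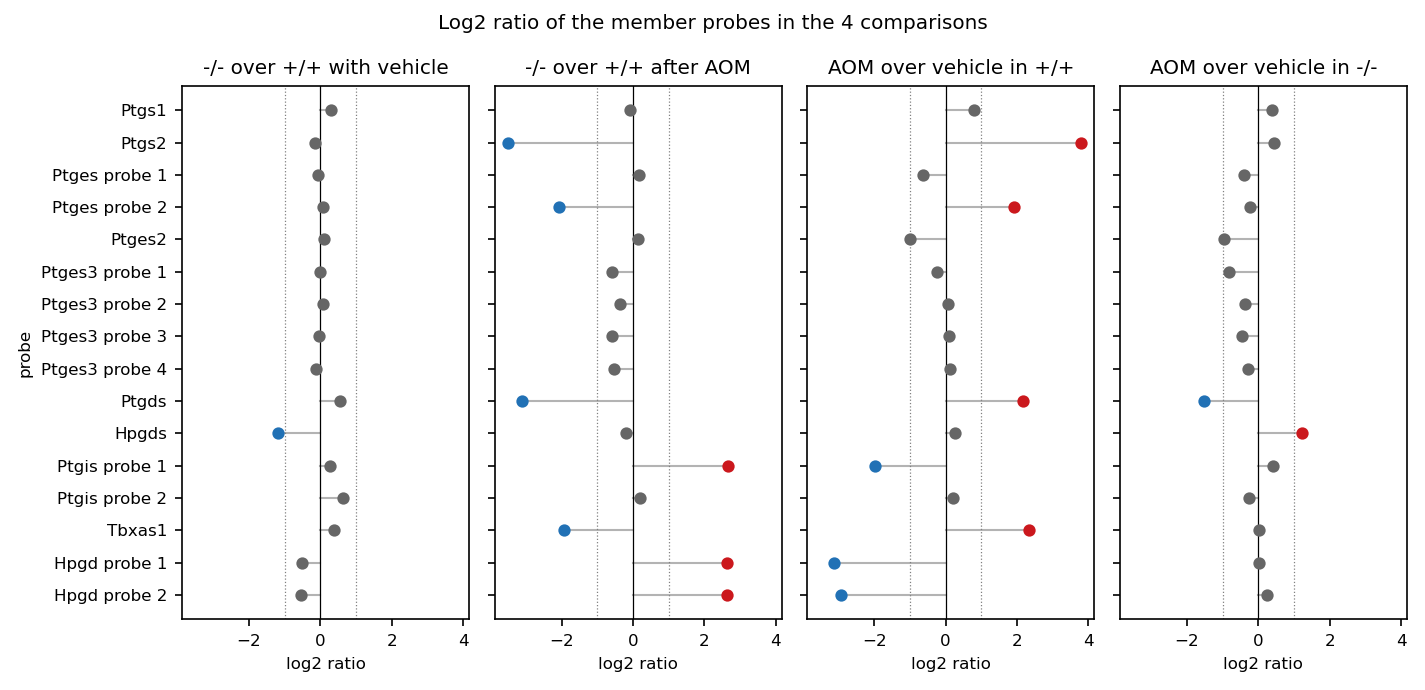
Log2 ratio of the 16 member probes with a value, in the 4 comparisons. Red points are more than 2-fold higher, blue points more than 2-fold lower, gray points within 2-fold, and dotted lines mark 2-fold. Of the 10 genes by their brightest probe, 1 is past 2-fold in the first panel, 5 in the second, 5 in the third and 2 in the fourth, and *Ptges* differs between its 2 probes.

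The prostaglandin D2 synthases moved apart. *Ptgds* encodes the lipocalin-type enzyme, and its probe read 0.0330, 0.0485, 0.148 and 0.0170. The signal was highest on the *Pla2g3*+/+ AOM array and lowest on the labeled *Pla2g3*-/- AOM array, 8.65-fold apart. AOM over vehicle was 4.47-fold higher in *Pla2g3*+/+ and 2.84-fold lower in the labeled *Pla2g3*-/- pools. These are dim signals (intensities from 19.9 to 193), and with a normexp background correction and quantile normalization the difference between genotypes after AOM was within 2-fold (log2 ratio -0.84).

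*Hpgds* encodes the hematopoietic enzyme, known from mast cells and other immune cells. Its probe read 0.126, 0.0554, 0.150 and 0.130, so that the labeled *Pla2g3*-/- vehicle array stood below the other 3. *Hpgds* was 2.27-fold lower there than in *Pla2g3*+/+ with vehicle, where 167 of 16392 genes were lower still, and 2.35-fold higher after AOM than with vehicle in the labeled *Pla2g3*-/- pools. With normexp and quantile normalization both were within 2-fold (log2 ratios -0.49 and 0.51). The 60 bases of the probe map across 3529 bases of chromosome 6 in mm9.

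Prostacyclin synthase and thromboxane synthase differed in opposite directions. *Ptgis*, whose product relaxes vessels and smooth muscle, has 2 probes, 11379 bases apart, which also disagreed. The brighter, with a RefSeq accession, read 1.26, 1.51, 0.321 and 2.01, lowest on the *Pla2g3*+/+ AOM array. It was 3.91-fold lower after AOM than with vehicle in *Pla2g3*+/+ and 6.26-fold higher in the labeled *Pla2g3*-/- AOM pool than in *Pla2g3*+/+. The dimmer, with an Ensembl accession and intensities from 14.0 to 33.1, read 0.0216, 0.0337, 0.0247 and 0.0283 and was within 2-fold in every comparison.

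*Tbxas1*, whose product constricts vessels and activates platelets, read 0.198, 0.258, 0.998 and 0.261 by its RefSeq probe. The *Pla2g3*+/+ AOM array stood above the other 3. The gene was 5.05-fold higher after AOM in *Pla2g3*+/+, 1.01-fold in the labeled *Pla2g3*-/- pools, and 3.83-fold lower in the labeled *Pla2g3*-/- AOM pool than in *Pla2g3*+/+. A second *Tbxas1* probe, named by a cDNA accession and 132224 bases away, was not well above background on any array (0.00411, 0.00558, 0.00301 and 0.00367) and has no ratio.

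*Hpgd*, the enzyme of breakdown, ran opposite to COX-2. Its brighter probe read 10.5, 7.32, 1.21 and 7.49 and its other probe, 458 bases away, 4.59, 3.17, 0.598 and 3.73. On both probes the *Pla2g3*+/+ AOM array stood far below the other 3. By the brighter probe *Hpgd* was 8.66-fold lower after AOM than with vehicle in *Pla2g3*+/+ colon, 1.02-fold in the labeled *Pla2g3*-/- pools, and 6.19-fold higher in the labeled *Pla2g3*-/- AOM pool than in *Pla2g3*+/+. The second probe gave 7.67-fold, 1.18-fold and 6.24-fold. Set against each other, *Ptgs2* over *Hpgd* was 120.7-fold higher after AOM than with vehicle in *Pla2g3*+/+ and 1.33-fold in the labeled *Pla2g3*-/- pools. Such a ratio shows unequal change of the 2 genes, not what either did alone.

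**Figure D4:**
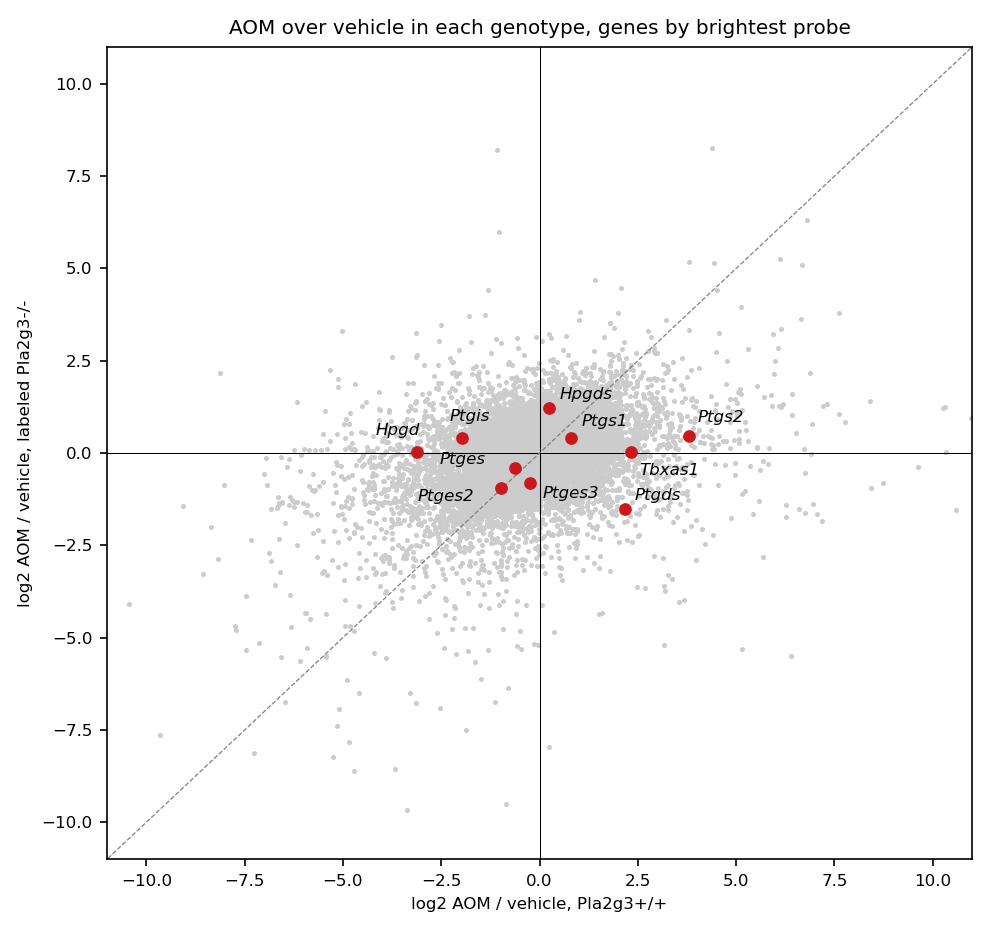
Log2 ratio of AOM over vehicle in *Pla2g3*+/+ (horizontal) against that in the pools labeled *Pla2g3*-/- (vertical) for genes with a value in both, by brightest probe, gray for all genes and red for the 10 members. The dashed line marks equal ratios. *Ptgs2* and *Tbxas1* lie to the right and *Hpgd* and *Ptgis* to the left of it, all near 0 on the vertical axis, and *Ptgds* is above 0 on one axis and below 0 on the other.

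The AOM over vehicle ratio differed most between genotypes for *Ptgds* and *Ptgs2* among genes lower in the pools labeled *Pla2g3*-/-, by -3.67 and -3.35 on the log2 scale, and for *Hpgd* and *Ptgis* among those higher, by 3.15 and 2.38. Of 14788 genes with this value, whose median was 0.065, 147 were below *Ptgds*, 193 below *Ptgs2*, 255 above *Hpgd* and 512 above *Ptgis*. *Tbxas1* followed at -2.32. With normexp and quantile normalization the difference for *Ptgds* was -0.99, smaller in size than that of *Ptgs2* (-2.46) and *Tbxas1* (-1.75). With 1 array per group the difference was not tested.

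Enzymes that release arachidonic acid, or act before its release, did not move as one. In the list of 9 for these steps, 5 were higher and 2 lower after AOM in the labeled *Pla2g3*-/- pool than in *Pla2g3*+/+. The median log2 ratio was 1.58 against 0.032 over all genes, of which 15.1% were higher and 12.9% lower. That median is the value of *Plcb1*, a phospholipase C. The highest was *Pla2g3* itself and the lowest *Pla2g2d*, a secreted phospholipase of dendritic cells, which read 0.0980, 0.0795, 0.543 and 0.0468 and was 11.6-fold lower. *Pla2g10*, a secreted enzyme of colon epithelium and the brightest of the list, was 3.08-fold higher. *Pla2g4a*, the cytosolic enzyme that feeds the cyclooxygenases, was within 2-fold in all 4 comparisons, at 2.50, 2.77, 1.66 and 2.53. In *Pla2g3*+/+ colon 2 of the 9 were higher and 5 lower after AOM, against 15.1% and 22.4% of all genes. In the labeled *Pla2g3*-/- pools 1 was higher and 1 lower, against 9.65% and 15.1%. None was past 2-fold between the vehicle pools, against 3.25% of all genes.

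Of 9 prostanoid receptors, 7 had a value between genotypes after AOM, 3 of them higher and none lower in the pool labeled *Pla2g3*-/- (median log2 ratio 0.54), against 15.1% and 12.9% of all genes. *Ptger3*, a receptor for prostaglandin E2, was at least 39.4-fold higher, its signal on the *Pla2g3*+/+ AOM array being not well above background. *Ptger4*, a prostaglandin E2 receptor and the brightest of the list, differed by 1.01-fold, and *Ptger2*, the lowest, had a log2 ratio of -0.87. *Ptgdr* and *Ptgdr2*, the receptors for prostaglandin D2, were not well above background on any array. Between the vehicle pools *Ptger2* was past 2-fold, at 3.43-fold higher in the labeled *Pla2g3*-/- pool.

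Among 7 genes of prostaglandin transport and other conversion, 3 were higher and 1 lower after AOM in the pool labeled *Pla2g3*-/- (median log2 ratio 0.18), against 15.1% and 12.9% of all genes. *Slco2a1*, the carrier that takes prostaglandins into cells where they are broken down, read 2.41, 2.20, 1.58 and 5.70, highest on the labeled *Pla2g3*-/- AOM array and 3.62-fold above *Pla2g3*+/+. *Abcc4*, which exports prostaglandin E2, read 0.315, 0.302, 4.24 and 1.27, and was 13.5-fold higher after AOM in *Pla2g3*+/+ and 4.20-fold higher in the labeled *Pla2g3*-/- pools. *Cbr1*, a carbonyl reductase and the brightest of the list, was 2.95-fold higher in the labeled *Pla2g3*-/- AOM pool than in *Pla2g3*+/+. In *Pla2g3*+/+ colon 2 of the 7 were higher and 2 lower after AOM, against 15.1% and 22.4% of all genes.

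Of 8 known inducers and regulators of *Ptgs2* and *Ptges*, 5 were higher and none lower after AOM in *Pla2g3*+/+ colon, with a median log2 ratio of 1.49 against -0.17 over all genes, of which 15.1% were higher and 22.4% lower. *Il1b*, the cytokine that classically induces COX-2, read 0.102, 0.0967, 5.67 and 0.0790, and was 55.8-fold higher after AOM in *Pla2g3*+/+ colon. After AOM 5 of the 8 were lower and none higher in the pool labeled *Pla2g3*-/-, against 12.9% and 15.1% of all genes. *Il1b* was lower by 71.8-fold. *Elavl1*, an RNA-binding protein that stabilizes AU-rich messages and the brightest of the list, was within 2-fold in all comparisons. *Hif1a* had the highest log2 ratio between genotypes after AOM, at 0.68, and was 5.01-fold higher after AOM in the labeled *Pla2g3*-/- pools. There 1 of the 7 with a value was higher and 1 lower, against 9.65% and 15.1% of all genes.

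Cell type markers differed widely between the AOM arrays, where 15.1% of all genes were higher and 12.9% lower in the labeled *Pla2g3*-/- pool. In such tissue RNA, fewer cells of a type and less RNA per cell cannot be told apart. All 6 smooth muscle genes were more than 2-fold higher in the labeled *Pla2g3*-/- AOM pool than in *Pla2g3*+/+ (median log2 ratio 5.34), and their summed signal was 298, 316, 17.4 and 309, with *Lmod1* not well above background on the *Pla2g3*+/+ AOM array. *Ptgis* was low on that same array by its brighter probe only. The 5 endothelial genes, of a cell type that makes prostacyclin, had a median log2 ratio of -0.58 between genotypes after AOM. The 5 colonocyte genes summed to 363, 416, 40.9 and 246, and the 4 goblet cell genes to 744.5, 696, 77.3 and 343, all 9 of them past 2-fold higher in the labeled *Pla2g3*-/- AOM pool, and *Hpgd* was low where they were. The part of these cell types in the ratios of *Ptgis* and *Hpgd* was not tested. The 5 general epithelial genes were within 2-fold between the AOM pools.

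Tumor and immune cell genes also differed between the AOM arrays. All 7 Wnt targets of colon tumors were past 2-fold lower in the labeled *Pla2g3*-/- AOM pool (median log2 ratio -4.24), and their summed signal was 4.93, 4.75, 38.1 and 4.22, highest on the array where *Ptgs2* was highest. Of 6 macrophage genes, 5 were lower and *Itgam* was higher, with a median of -1.26 and sums of 29.4, 27.2, 27.6 and 21.0, to which *Itgam* gave 18.7, 15.4, 5.95 and 12.6. After AOM in *Pla2g3*+/+ colon, where *Tbxas1* was 5.05-fold higher, the macrophage genes had a median log2 ratio of 1.21. *Cd68* was 5.44-fold, *C1qa* 2.46-fold, *Adgre1* 2.33-fold, *Cd14* 2.30-fold and *Csf1r* 1.49-fold higher, and *Itgam* was 3.14-fold lower. Of 5 neutrophil genes, 3 were lower and 1 higher in the labeled *Pla2g3*-/- AOM pool than in *Pla2g3*+/+ (median -3.23, sums 54.8, 53.8, 92.9 and 61.7). *Csf3r* gave 49.5, 50.02, 44.4 and 53.8 of these sums. In *Pla2g3*+/+ colon 3 of the 5 neutrophil genes were past 2-fold higher after AOM than with vehicle, against 15.1% of all genes. In the labeled *Pla2g3*-/- pools 3 of 4 neutrophil genes with a value were also past 2-fold higher after AOM, against 9.65% of all genes. Between the AOM pools, 3 of 5 fibroblast genes were lower and 1 higher in the pool labeled *Pla2g3*-/- (median -1.31, sums 31.8, 35.7, 91.0 and 71.0). Of 4 platelet genes 1 was lower in that pool (median -0.87, sums 4.18, 6.49, 9.10 and 5.08). The part of these cells in the ratios of *Ptgs2*, *Tbxas1* and *Ptgds* was not tested.

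Mast cell genes, set beside *Hpgds*, moved in both directions. Of 7 mast cell genes 5 were lower in the labeled *Pla2g3*-/- AOM pool than in *Pla2g3*+/+ (median log2 ratio -2.95), and their summed signal was 1.70, 1.45, 18.3 and 1.20. In *Pla2g3*+/+ colon 6 of 7 were higher after AOM and *Kit* was lower, against 15.1% and 22.4% of all genes. *Mcpt1*, the brightest, was 132-fold higher there, whereas *Hpgds* was 1.19-fold higher. In the labeled *Pla2g3*-/- pools *Hpgds* was 2.35-fold higher after AOM. There 3 of the 6 mast cell genes with a value were higher and 2 lower, against 9.65% and 15.1% of all genes. The part of mast cells in the ratios of *Hpgds* was not tested. Of the 6 tuft cell genes, a cell type that makes prostaglandin D2 with COX-1 and the hematopoietic synthase, *Pou2f3* and *Il25* were not well above background on any array and the other 4 were within 2-fold between the AOM pools (median 0.27, sums 0.783, 0.652, 0.366 and 0.399).

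**Figure D5:**
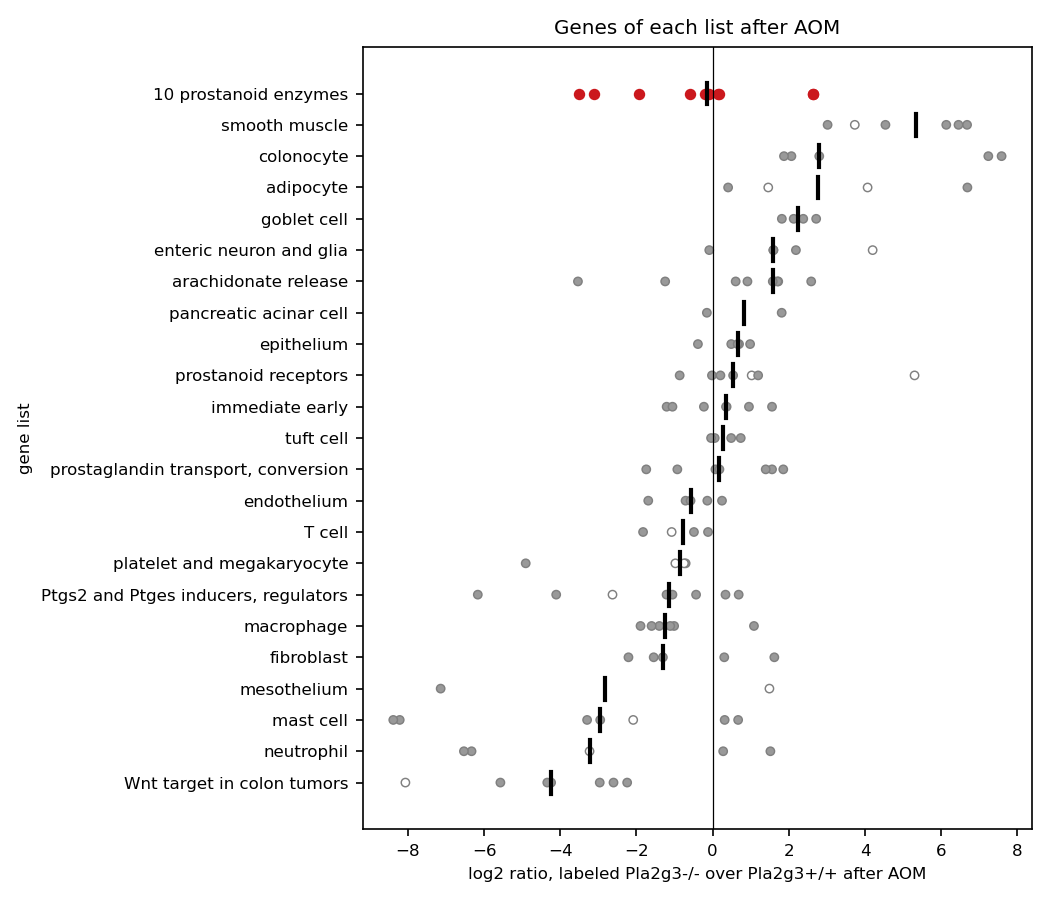
Log2 ratio of the pool labeled *Pla2g3*-/- over *Pla2g3*+/+ after AOM for the genes of each list, with a black bar at the median of the list. Open points are bounds, where 1 array was not well above background, and red points are the 10 prostanoid enzymes by their brightest probe. The enzymes spread from -3.51 to 2.65 around a median of -0.15, between smooth muscle at 5.34 and Wnt targets at -4.24.

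For the members past 2-fold in a comparison, the genes with the most similar pattern were sought among 14787 genes, by the distance between log2 values centered on their mean over the 4 arrays. Nearest to *Ptgs2* were *Krt23*, *Tcf7* and *Abcc2* (distances 0.23, 0.27 and 0.29), and nearest to *Tbxas1* were *Ddah2*, *Msr1* and *Klc3* (0.080, 0.099 and 0.099). *Msr1* encodes a scavenger receptor of macrophages. *Ptgds* had *Fcgr4*, *Slamf8* and *Hk3* (0.24, 0.24 and 0.32), *Ptgis* had *Scrn1*, *Prkg1* and *Ckb* (0.086, 0.14 and 0.14), *Hpgd* had *Chpt1*, *Radx* and *Proz* (0.10, 0.14 and 0.16), and *Hpgds* had *Utp15*, *Cep192* and *Ccdc13* (0.20, 0.26 and 0.28). With 4 arrays, many genes share any one pattern, so the likeness is a description.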

How the data were processed

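The measurements were 4 one-color (Cy3) Agilent whole mouse genome arrays, 1 per group, each labeled from 27.7 ng of pooled colon RNA. The authors deposited spot intensities from Agilent Feature Extraction (version 11.5.1.1 in the files), background-subtracted and detrended but not scaled between arrays, with a well-above-background flag. The deposited table holds a ratio, the authors' intensity over the 75th percentile of the array, and was used as an alternative. Groups were taken from the sample labels. Control and outlier spots were left out, log2 intensities of replicate spots were averaged, and the log2 75th percentile of each array was subtracted. Where 1 array of a comparison was not well above background, its side was set to its own signal or, if higher, the lowest signal well above background on that array, and the ratio is written "at least".

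Probes were named by RefSeq accession, symbol or unique synonym (GRCm38.p6), which matched 31372 of 39429 probes to 22371 genes. Each gene was represented by its brightest probe. Probe coordinates are those of the array files (mm9). The signals of all 17 member probes are given, and the sequences of the *Ptgis* probes are not reported here. Named from each list are its brightest gene and its highest or lowest ratio, and for members past 2-fold the 3 genes of closest pattern. Some further list genes are named after their values were seen. The members and lists were chosen with earlier results of these data known.

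No test was possible with 1 array per group, and the number of arrays limits the precision. The code was tested on simulated data with known changes. The alternatives were no scaling, scaling by the median, quantile normalization, normexp correction with an offset of 50 and quantile normalization (limma 3.58.1, R 4.3.3), the deposited table, a floor after scaling, no filter, only probes above background on both arrays, outlier spots kept, the mean or the dimmest probe of a gene, and thresholds of 1.5-fold and 4-fold. Other calculations used Python 3.11.15, pandas 2.3.3 and numpy 2.4.6.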

Additional observations from a re-analysis of the deposited data

Results flagged for a closer look

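*Ptgds* stood out because its AOM over vehicle ratio went one way in *Pla2g3*+/+ colon and the other way in the pools labeled *Pla2g3*-/-, with both past 2-fold. The log2 ratio was 2.16 in *Pla2g3*+/+ and -1.51 in the labeled *Pla2g3*-/- pools. The difference was not tested, since each value comes from 1 pair of arrays. With the normexp correction and quantile normalization both kept their sign and neither was past 2-fold, at 0.72 and -0.27.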

How the results depend on the processing

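No paired analysis was possible because each group has 1 array, and no array could be left out for the same reason. Of 765 recomputed values of the member probes, 736 stayed on their side of 2-fold, 706 of them with the same sign, 16 passed it, 11 fell within it with the same sign and 2 fell within it with the other sign. In all 35 changed sign, 33 of which had been within 2-fold. The 13 without scaling included AOM over vehicle in *Pla2g3*+/+ for *Ptges* (0.38, from -0.64) and *Ptges2* (0.030, from -0.99). The deposited table, the floor, no filter, only probes above background on both arrays and kept outlier spots moved no member value across 2-fold or past 0. Each of these gives 80 of the 765 values, and most could not change. The 16 probes with a value were well above background on all 4 arrays, so the 2 filter settings repeat the main values. The deposited table holds the same scaled ratio, and kept outlier spots can change only *Ptgs2*. Part of the 736 was thus fixed in advance. Precision is limited most for the dim probes of *Ptgds*, *Hpgds* and the second probes of *Ptgis* and *Ptges*. Apart from the *Pla2g3*+/+ AOM array, the *Ptgs2* probe was also dim, with intensities of 61.6, 55.4 and 136. Causes were not tested except where stated.

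With the dimmest probe of a gene, *Ptgis* changed sign for AOM over vehicle in *Pla2g3*+/+ (log2 ratio 0.19) and for the difference of that ratio between genotypes (-0.45), and was within 2-fold between genotypes after AOM (0.20). *Ptges* passed 2-fold for the same 3 values (1.91, -2.13 and -2.06). Then 1 member was higher between genotypes after AOM and 1 lower with AOM in *Pla2g3*+/+. With the mean over probes 1 member was lower there, and *Ptgis* gave -0.887 and a difference of 0.97. Its 2 probes differ, as described above.

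Without scaling, which by construction shifts all AOM ratios up (median of all genes from -0.17 to 0.87 in *Pla2g3*+/+ and from -0.081 to 0.76 in the labeled *Pla2g3*-/- pools), AOM over vehicle in *Pla2g3*+/+ passed 2-fold for *Ptgs1* (1.81), *Ptges3* probes 2 to 4 (1.09, 1.11 and 1.15), *Hpgds* (1.27) and the second *Ptgis* probe (1.21), and *Ptgis* fell within it (-0.95). There 5 members were higher and 1 lower, and 7751 and 1231 of all genes. In the labeled *Pla2g3*-/- pools *Ptgs1* (1.24), *Ptgs2* (1.30), *Ptgis* (1.26) and the second *Hpgd* probe (1.08) passed and *Ptgds* (-0.66) fell within. There 4 members were higher and 0 lower, and 6396 and 625 of all genes, against 1593 and 2496 with scaling. Scaling by the median gave *Ptges2* -1.02 in *Pla2g3*+/+. It also moved the difference for *Hpgds* past 2-fold (1.004), as did quantile normalization (1.08).

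Normexp was run together with quantile normalization, and its offset shrinks the ratios of dim probes by construction. The pair brought within 2-fold *Hpgds* between the vehicle pools (-0.49) and for AOM in the labeled *Pla2g3*-/- pools (0.51), and *Ptgds* between genotypes after AOM (-0.84), for AOM in each genotype (0.72 and -0.27) and for their difference (-0.99). Quantile normalization alone kept these past 2-fold (-1.20 and 1.29 for *Hpgds*, and -3.04, 2.26, -1.44 and -3.70 for *Ptgds*). The pair left 0 members past 2-fold between the vehicle pools and 0 for AOM in the labeled *Pla2g3*-/- pools. Of all genes it called 67 higher and 45 lower between the vehicle pools (316 and 216 before), 1355 and 1131 between genotypes after AOM (2600 and 2215), 1603 and 1537 for AOM in *Pla2g3*+/+ (2612 and 3871) and 787 and 770 in the labeled *Pla2g3*-/- pools. Quantile normalization alone called 2997 and 3107 for AOM in *Pla2g3*+/+ and 1791 and 1915 in the labeled *Pla2g3*-/- pools. Between the vehicle pools no filter gave 675 and 709, and only probes above background on both arrays 159 and 106.

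At 1.5-fold, all-gene counts in the same order of comparisons were 664 and 570, 4229 and 3694, 4220 and 6108, and 3413 and 4712, and 4 members were lower for AOM in *Pla2g3*+/+ and 3 in the labeled *Pla2g3*-/- pools. At 4-fold they were 121 and 60, 972 and 855, 859 and 1250, and 229 and 509, with 1 member lower for AOM in *Pla2g3*+/+, 0 lower between the vehicle pools, and 0 in either direction for AOM in the labeled *Pla2g3*-/- pools.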

Other observations

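Other lists of cell type markers, given as the median log2 ratio of the pool labeled *Pla2g3*-/- over *Pla2g3*+/+ after AOM, lay on both sides of 0. Of all genes, 15.1% were past 2-fold higher and 12.9% lower in this comparison. The 4 adipocyte genes had a median of 2.76 (3 past 2-fold higher), with summed signals of 15.8, 34.2, 2.05 and 4.92 in the array order of the report. The 5 genes of enteric neurons and glia had a median of 1.60 (4 past 2-fold higher), and the 5 endothelial genes, a cell type that makes prostacyclin, a median of -0.58 with *Cdh5* past 2-fold lower. The 4 T cell genes had a median of -0.78 (2 past 2-fold lower), and of 3 mesothelial genes 2 had a value, 1 past 2-fold in each direction. The 7 immediate early genes had a median of 0.35, with *Fos* 2.95-fold higher and *Jun* and *Egr1* past 2-fold lower. Of the 7 pancreatic acinar genes 2 had a value after AOM, *Cela1* past 2-fold higher and *Ctrb1* within 2-fold.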
